A study of Mus musculus with 12 samples.

Results

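Transcript levels of 10 postsynaptic scaffold genes were examined in the hippocampus of mice lacking presenilins and of wild-type mice, at night and by day. The genes were taken by name, by a rule that holds no measured value, but with earlier results of these data known. They are the Dlg genes Dlg2, Dlg3 and Dlg4, the Dlg-binding gene Dlgap1, the Shank genes Shank1, Shank2 and Shank3, and the Homer genes Homer1, Homer2 and Homer3. All 10 stood in each of the 12 library tables, among 21878 genes. All 10 were among the 12689 genes tested (those reaching 0.5 FPKM in 3 or more libraries), and the lowest value of any of them in any library was 5.36 FPKM. The 4 groups were Night DKO, Night WT, Day DKO and Day WT, with 3 libraries each. DKO mice carried a conditional double knockout of presenilins, the catalytic subunits of gamma-secretase, and WT stands for wild type. All mice were killed under pentobarbital anesthesia, at 9 in the morning or at 9 in the evening. The labels do not tie the words Day and Night to those hours, and they state neither the age of the mice nor the promoter that drives the recombinase. No source says that the libraries of a group came from different mice. Ddx3y, a Y-linked gene, stood at 0.0225 FPKM in Night WT replicate 1 and at 8.47 and 8.39 FPKM in replicates 2 and 3. The Night WT libraries therefore did not all come from the same mouse. In the other groups, and between Night WT replicates 2 and 3, the spread on which the p-values rest may be technical.

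The postsynaptic density is a protein layer under the membrane of excitatory synapses, where scaffold proteins hold glutamate receptors next to signalling enzymes and the actin cytoskeleton. PSD-95 (Dlg4), PSD-93 (Dlg2) and SAP102 (Dlg3) bind NMDA receptors and the auxiliary subunits of AMPA receptors through PDZ domains. GKAP (Dlgap1) joins them to the Shank proteins. Shank proteins bind Homer, which in turn binds group I metabotropic glutamate receptors and inositol trisphosphate receptors. Homer1 also gives rise to Homer1a, a short form that neuronal activity induces and that uncouples the long forms.

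Levels were deposited as FPKM, a fragment count divided by transcript length and library total, which allows levels of different genes to be compared. Library sums ran from 151059 to 175692 FPKM. The number of reads is unknown, and relative depth, read from the steps between low values, was 0.923 to 1.06 with Day WT replicate 1 set to 1. Psen2, which checks the genotype labels, had 0.486, 0.351 and 0.594 FPKM in Night DKO against 3.55, 2.94 and 3.64 FPKM in Night WT. It had 0.520, 0.378 and 0.275 FPKM in Day DKO against 1.67, 1.47 and 2.87 FPKM in Day WT. Psen2 was thus lower in every DKO library and passed the test at both times (limma, adjusted p = 0.000785 at night and 0.00982 by day). Night WT replicate 1 was at 0.0225 FPKM for the Y-linked Ddx3y, against 6.83 to 8.56 FPKM in the other 11 libraries, so it differs from them in sex. All 7 pan-neuronal and all 8 excitatory neuron markers were detected. In bulk tissue, fewer cells of a type and less RNA per cell cannot be told apart.

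The mean level over the 12 libraries ran from 6.25 FPKM for Shank2 to 52.2 FPKM for Dlg4. Dlg4 stood at percentile 96.0 of all genes tested and Dlgap1, at 29.9 FPKM, at percentile 92.4. Dlg3 (17.0 FPKM), Shank3 (14.7 FPKM) and Homer1 (11.5 FPKM) followed, then Dlg2 (9.23 FPKM), Shank1 (8.95 FPKM), Homer3 (8.19 FPKM), Homer2 (6.59 FPKM) and Shank2. Dlg4 lay above Dlgap1, and Dlgap1 above Dlg3, in all 12 libraries with ranges that did not overlap. Every later neighbour in this order overlapped the next one in range, although Shank3 exceeded Homer1 and Homer1 exceeded Dlg2 within each of the 12 libraries. Dlg2 exceeded Shank1 in 6 libraries, and Homer2 exceeded Shank2 in 7, so those neighbours were not ordered. The spread over all libraries was smallest for Dlgap1 (coefficient of variation 3.86%) and widest for Shank1 (16.7%).

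The longest transcripts of the 10 genes had a median of 7269 bases, against 3509 bases over all genes tested. As follows from their choice, all 10 are annotated in the deposited tables to the Gene Ontology term postsynaptic density, which 259 genes carry, and 8 of them to the pathway Glutamatergic synapse, which 111 genes carry. The exceptions in that pathway are Dlg2 and Dlg3. Of the 10 genes, 4 (Shank1, Shank2, Homer2 and Dlg2) lie on chromosome 7. Dlg2 has the longest gene body, 1973059 bases at chr7:90476188-92449246 (GRCm38.p6).

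**Figure D1:**
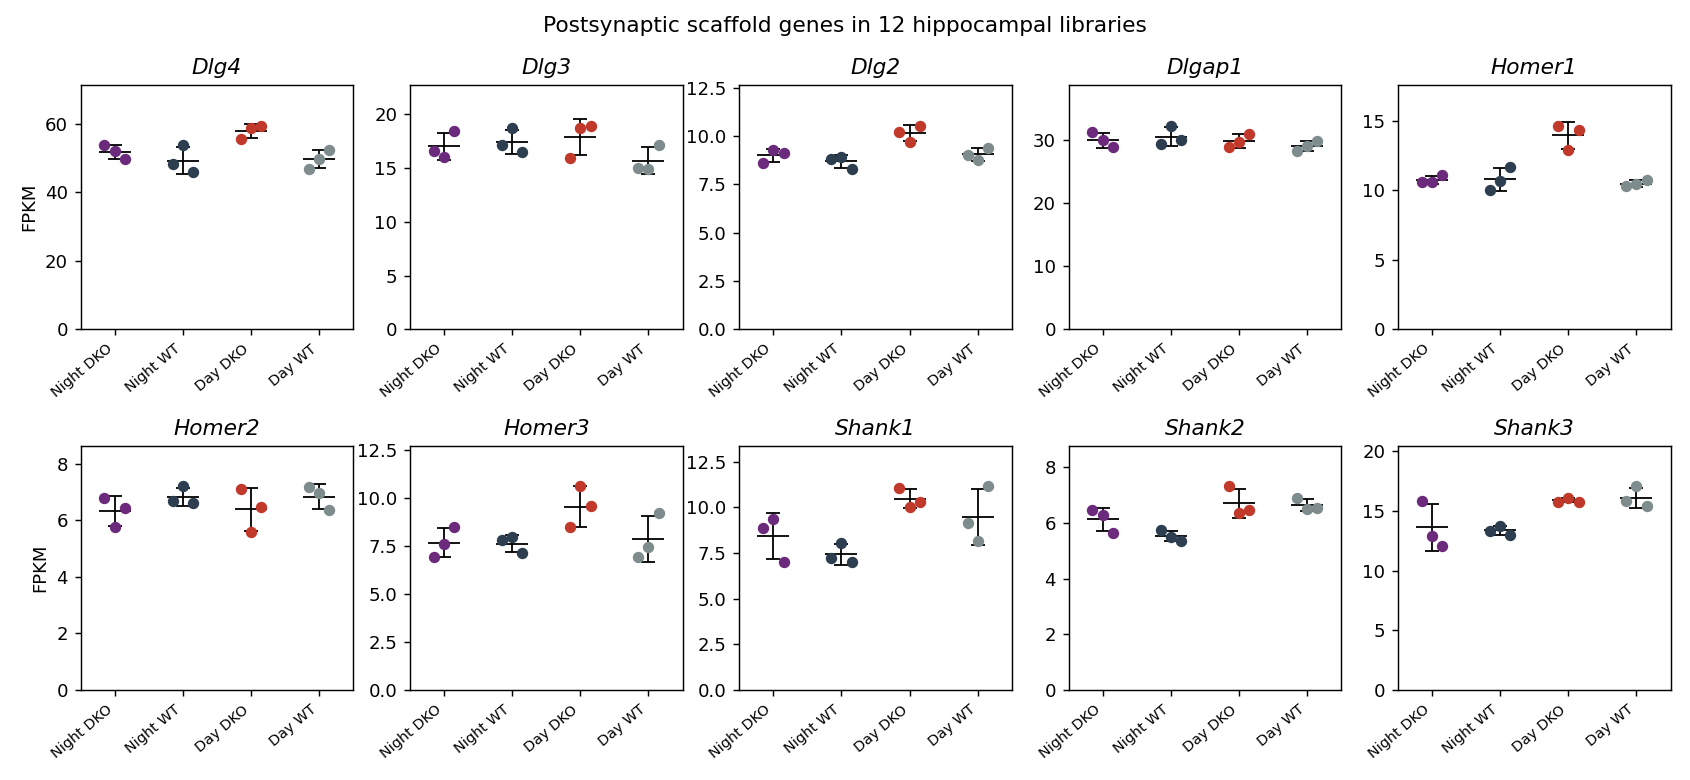
FPKM of each of the 10 genes (vertical axis, from 0) in the 12 hippocampal libraries, by group (horizontal axis). Points are libraries, and the bars give mean and SD over 3 libraries. The Day DKO libraries of Homer1 lie at 12.9 to 14.7 FPKM, above all 9 other libraries, and the means of the 3 Shank genes are lower in each night group than in its day group.

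Dlg4, the gene of PSD-95, is the core scaffold of mature excitatory synapses (chr11:70017203-70045535, GRCm38.p6). It had 54.0, 52.0 and 49.9 FPKM in Night DKO against 48.3, 53.8 and 45.9 FPKM in Night WT. It had 55.6, 58.9 and 59.5 FPKM in Day DKO against 47.0, 49.8 and 52.3 FPKM in Day WT. The night groups overlapped, while every Day DKO library lay above every Day WT library and every Night DKO library. The day difference did not pass the test (limma, log2 difference 0.22, SE 0.0673, adjusted p = 0.136).

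Dlg2, whose protein PSD-93 is a close relative of PSD-95, showed the same order of groups by day at a lower level. Dlg2 had 8.60, 9.29 and 9.11 FPKM in Night DKO against 8.83, 8.94 and 8.32 FPKM in Night WT. It had 10.2, 9.72 and 10.5 FPKM in Day DKO against 9.01, 8.78 and 9.41 FPKM in Day WT. Here too the Day DKO libraries did not overlap Day WT, and the difference was not called (limma, log2 difference 0.15, adjusted p = 0.196). Dlg3, whose protein SAP102 is prominent at immature synapses, is X-linked (chrX:100767411-100818410). It averaged 17.0 ± 1.28 FPKM in Night DKO and 17.4 ± 1.13 FPKM in Night WT, and 17.9 ± 1.66 FPKM in Day DKO and 15.7 ± 1.27 FPKM in Day WT (SD, n = 3 each). Its groups overlapped in each genotype comparison, and the library of the other sex, Night WT replicate 1, had 17.2 FPKM, within the range of its group. Dlgap1, the link between the Dlg and Shank layers, had the most even level of the 10. It averaged 30.1 ± 1.19 FPKM in Night DKO, 30.6 ± 1.54 FPKM in Night WT, 29.9 ± 1.06 FPKM in Day DKO and 29.1 ± 0.814 FPKM in Day WT (SD, n = 3 each). Its log2 differences lay between -0.03 and 0.07 in the comparisons made within 1 time or within 1 genotype.

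The Shank proteins are large platforms that join Dlgap1 to Homer and to actin regulators. Shank1 (chr7:44308916-44360094) had 8.86, 9.38 and 7.003 FPKM in Night DKO against 7.24, 8.07 and 6.99 FPKM in Night WT. It had 11.1, 10.04 and 10.3 FPKM in Day DKO against 9.13, 8.16 and 11.1 FPKM in Day WT. The genotypes overlapped at both times, and each night group lay wholly below its day group. Shank2 (chr7:143978077-144426043) had 6.45, 6.28 and 5.63 FPKM in Night DKO against 5.74, 5.49 and 5.36 FPKM in Night WT. It had 7.31, 6.35 and 6.47 FPKM in Day DKO against 6.89, 6.51 and 6.53 FPKM in Day WT. All 3 Night WT libraries were below all 3 Day WT libraries, while Night DKO overlapped Day DKO. Shank3 (chr15:89493013-89560261), the Shank gene lost in the human Phelan-McDermid syndrome, had 15.8, 12.9 and 12.1 FPKM in Night DKO against 13.3, 13.8 and 13.02 FPKM in Night WT. It had 15.8, 16.1 and 15.8 FPKM in Day DKO against 15.8, 17.1 and 15.4 FPKM in Day WT. Night DKO replicate 1 was at the day level, and the other 5 night libraries lay below all 6 day libraries.

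The Homer proteins tie Shank to metabotropic glutamate receptors and to intracellular calcium channels. Homer1 was the member with the largest genotype difference by day, and Homer2 the member with the most negative one, so the 250 bases before the start of each are shown (RefSeq, GRCm38.p6, Homer1 on the plus strand at chr13:93303507-93303756 and Homer2 on the minus strand at chr7:81706926-81707175). Capitals mark each match to TGACG, the core shared by cAMP response elements, searched on both strands. The motifs searched were chosen with the levels known, and a match is a description of letters only.
Homer1: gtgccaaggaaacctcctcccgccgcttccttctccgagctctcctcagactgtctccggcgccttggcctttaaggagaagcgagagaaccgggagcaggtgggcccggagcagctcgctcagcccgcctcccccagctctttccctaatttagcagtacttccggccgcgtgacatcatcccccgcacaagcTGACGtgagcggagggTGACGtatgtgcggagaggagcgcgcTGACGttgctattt
Homer2: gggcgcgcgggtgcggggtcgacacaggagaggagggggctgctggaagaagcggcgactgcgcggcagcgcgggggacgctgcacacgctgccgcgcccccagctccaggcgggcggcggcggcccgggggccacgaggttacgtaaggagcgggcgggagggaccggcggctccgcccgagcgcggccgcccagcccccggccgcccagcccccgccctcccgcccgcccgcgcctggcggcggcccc
The Homer1 window held 3 matches, whose first bases lie 56, 40 and 14 bases before the start, and the Homer2 window held none. The second Homer1 window of the RefSeq table (chr13:93307784-93308033) also held none. Over the 32817 windows of this length in the RefSeq table, 17.7% held at least 1 match on either strand, 3.90% at least 2 and 0.689% at least 3. TGACG holds a CpG (a C followed by a G), and these shares were not matched for CpG content. With the first 50 bases of the transcript included, the Homer1 window shown held 26 CpG and the Homer2 window 49. The median over all windows was 7. Among the 16 windows of the 8 members matched in that table (Homer1, Homer2, Homer3, Dlg2, Dlg3, Dlg4, Dlgap1 and Shank3), 3 held at least 1 match (Homer1, Dlg3 and Dlg4), near the share of all windows, and 1, the Homer1 window shown, held more than 1. In windows of 300 bases that also include the first 50 bases of the transcript, the full element TGACGTCA stood in 1.79% of all windows and in 0 of the 16. The E-box CACGTG, to which clock proteins bind, stood in 7.15% of all windows and in 1 of the 16 (Dlgap1). GTGGGAA, the letters bound by the Notch pathway factor RBPJ, stood in 6.39% of all windows and in 2 of the 16 (Dlg2 and Dlg4). TGACG overlaps TGACGTCA by its letters, and the counts of both hold such matches.

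Homer1 (chr13:93303757-93405129) had 10.6, 10.6 and 11.1 FPKM in Night DKO against 10.04, 10.7 and 11.7 FPKM in Night WT. It had 14.7, 12.9 and 14.4 FPKM in Day DKO against 10.3, 10.4 and 10.8 FPKM in Day WT. The 3 Day DKO libraries stood above the other 9, which lay together between 10.04 and 11.7 FPKM. The annotation lists 12 transcripts of Homer1, and a level per gene does not separate Homer1a from the long forms. Homer2 had 6.79, 5.76 and 6.43 FPKM in Night DKO against 6.67, 7.20 and 6.61 FPKM in Night WT, and 7.10, 5.59 and 6.46 FPKM in Day DKO against 7.19, 6.96 and 6.35 FPKM in Day WT. Its groups overlapped in every comparison. Homer3 had 6.96, 7.63 and 8.49 FPKM in Night DKO against 7.81, 7.98 and 7.13 FPKM in Night WT, and 8.48, 10.6 and 9.58 FPKM in Day DKO against 6.93, 7.45 and 9.24 FPKM in Day WT. Homer3 leaned the same way as Homer1 by day, with overlapping groups and wider spread. Exons of Ddx49 on the other strand cover 25.4% of the exonic bases of Homer3, and whether the counting used strand is not given in the sources used here. For each of the other 9 members, exons of other genes on either strand cover at most 4.16%.

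Within the Homer family, Homer1 took its largest share in Day DKO. Homer1 made up 43.4 ± 0.718% of the summed FPKM of the 3 genes in Night DKO and 42.7 ± 2.80% in Night WT, and 46.7 ± 2.17% in Day DKO and 41.6 ± 0.704% in Day WT (SD, n = 3 each). The lowest Day DKO share, 44.3%, was above the highest Day WT share, 42.1%, and the highest Night DKO share, 44.1%. It was below the highest Night WT share, 45.9%, so Day DKO and Night WT overlapped. Homer2 made up 25.6 ± 2.07% in Night DKO and 27.02 ± 0.932% in Night WT, and 21.3 ± 2.14% in Day DKO and 27.2 ± 2.77% in Day WT. Those shares sum to a whole within a family, so they are not separate results. Dlg4 held 65.3% to 67.4% of the summed FPKM of Dlg2, Dlg3 and Dlg4 in the 4 group means. Dlg1, a further Dlg gene outside the members, was not in that sum. Shank3 held 48.1% to 50.8% of the Shank family sum. The groups of Dlg4 and of Shank3 overlapped within each time.

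**Figure D2:**
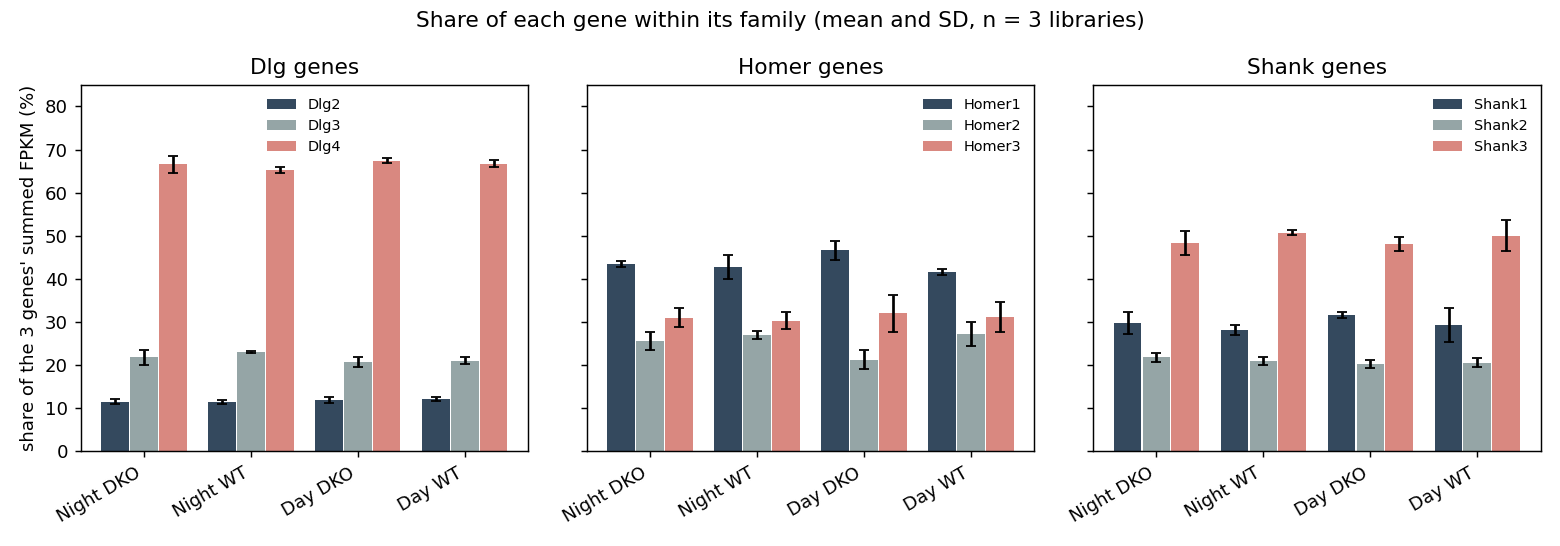
Share of each gene in the summed FPKM of the 3 Dlg, 3 Homer or 3 Shank genes among the members (vertical axis, percent), by group (horizontal axis). Dlg1 is not in the Dlg sum. Bars give means and error bars SD over 3 libraries. The Homer1 bar is highest in Day DKO, at 46.7%, with 41.6% in Day WT.

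The genotype comparison asks what loss of the presenilins does to hippocampal transcripts. At night, no member passed the test between DKO and WT, and the 10 log2 differences ran from -0.10 (Homer2) to 0.15 (Shank1). Of the members, 0 were called (limma, adjusted p under 0.05) and 0 had an unadjusted p under 0.05, with 0.0236% of all genes tested called. Homer1 differed by -0.00 on the log2 scale (limma, adjusted p = 0.993), with a 95% interval of -0.14 to 0.13. No member was free of overlap at night, against 5.73% of all genes tested with all Night DKO libraries above Night WT and 9.48% with all below. The smallest adjusted p was that of Shank2, at a log2 difference of 0.12 (limma, adjusted p = 0.598). The median difference of the members was 0.01, and that of all genes tested was -0.01.

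By day, Homer1 was higher in Day DKO, at 14.0 ± 0.958 FPKM against 10.5 ± 0.248 FPKM in Day WT (SD, n = 3 each), a mean 33.1% higher. It was the 1 member called (limma, log2 difference 0.38, SE 0.0641, 95% interval 0.24 to 0.52, adjusted p = 0.0209), with 1.18% of all genes tested called and 0.796% called higher. Differences of the other 9 ran from -0.09 to 0.25 and did not pass. Homer3 had a log2 difference of 0.25 (limma, adjusted p = 0.232), Dlg3 one of 0.18 (adjusted p = 0.298) and Shank1 one of 0.14 (adjusted p = 0.542). Shank2, Shank3 and Dlgap1 lay within 0.04 of 0. Of the 10 differences, 8 were positive, against 62.8% of all genes tested, and 4 had an unadjusted p under 0.05, against 17.0% of all genes. The median member difference was 0.14, against 0.04 for all genes tested. All Day DKO libraries exceeded all Day WT libraries for 3 members (Homer1, Dlg4 and Dlg2), which held for 14.3% of all genes tested.

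The Homer1 call by day held in 17 of 23 other settings, with a log2 difference of 0.31 to 0.43 and an adjusted p of 0.0186 to 0.0795 (limma). It was lost without Day DKO replicate 3 (adjusted p = 0.0760), without Day WT replicate 1 (adjusted p = 0.0585) and without Day WT replicate 2 (adjusted p = 0.0651). Sums of some cell type marker lists also differed by day. Summed FPKM of the 8 excitatory neuron markers ranged from 443.6 to 520.1 in Day DKO against 412.5 to 449.2 in Day WT. The 7 pan-neuronal markers summed to 523.7 to 582.5 in Day DKO against 520.2 to 543.7 in Day WT. The 8 microglia markers summed to 149.2 to 164.8 in Day DKO against 91.4 to 103.6 in Day WT, and the 10 choroid plexus markers to 61.5 to 1772 in Day DKO against 1100 to 2733 in Day WT. Sums of the 8 astrocyte markers ranged from 356.6 to 395.4 in Day DKO against 320.9 to 336.6 in Day WT. The 8 oligodendrocyte markers (321.5 to 400.6 in Day DKO against 395.5 to 434.6 in Day WT), the 8 mural markers (43.3 to 51.8 against 50.9 to 75.8), the 8 endothelial markers (33.8 to 37.5 against 38.9 to 46.4) and the 5 blood markers (90.5 to 109.8 against 111.0 to 153.1) leaned the other way. Interneuron markers ranged from 267.0 to 309.5 in Day DKO against 273.6 to 317.5 in Day WT. Those of neighbouring regions ranged from 15.4 to 17.8 against 15.7 to 25.1. Both overlapped, as did the excitatory neuron, pan-neuronal, choroid plexus, oligodendrocyte and mural markers. The microglia, astrocyte, endothelial and blood markers were separated. The part of all these markers in the Homer1 difference was not tested, except for the choroid plexus level. When that level entered the fit, the Homer1 difference was 0.42 (limma, adjusted p = 0.0795). No marker of these lists was at 0 in all 12 libraries.

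The test of whether the genotype difference differed between night and day called 0 members and 0% of all genes (limma, smallest adjusted p of any gene 0.396). Homer1 was the 1 member with an unadjusted p under 0.05. Its genotype difference at night minus that by day was -0.38 (limma, SE 0.0906, 95% interval -0.58 to -0.19, unadjusted p = 0.00101, adjusted p = 0.46). The Homer1 difference by day is therefore not shown to differ from the one at night once all genes are counted. Averaged over night and day, 0 members were called and 3 (Homer1, Dlg4 and Dlg2) had an unadjusted p under 0.05, with 1.88% of all genes tested called and 16.2% at such a p. Homer1 had an averaged log2 difference of 0.19 (limma, adjusted p = 0.0553), Dlg4 one of 0.15 (adjusted p = 0.14) and Dlg2 one of 0.10 (adjusted p = 0.228).

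**Figure D3:**
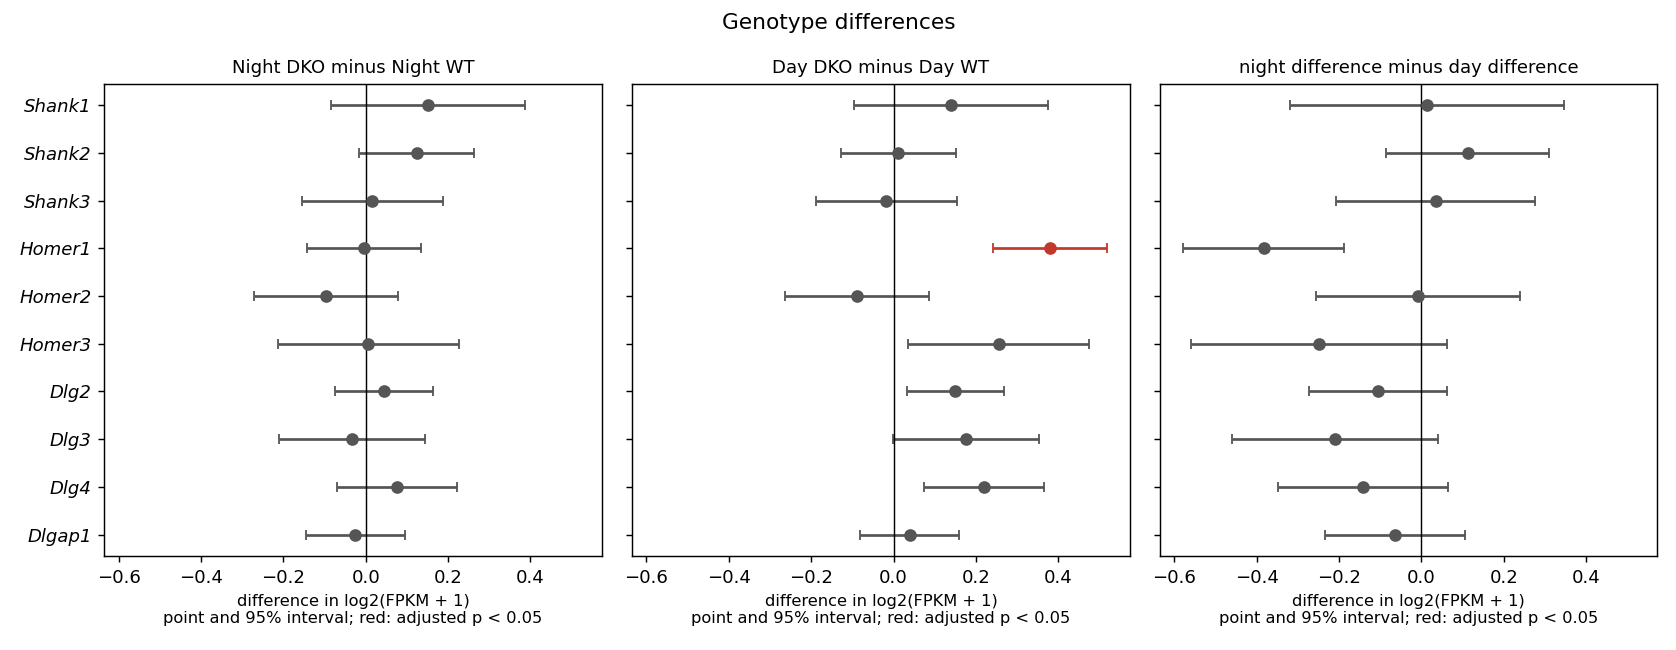
Difference in log2(FPKM + 1) between DKO and WT (horizontal axis) for each of the 10 genes (vertical axis), at night, by day, and as the night difference minus the day difference. Points are limma estimates, bars are 95% intervals, and red marks an adjusted p under 0.05. Homer1 by day, at 0.38, is the 1 red point.

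The series also compares the times of day, since its title names circadian changes. In DKO mice, Homer1 fell to 10.7 ± 0.308 FPKM in Night DKO, against 14.0 ± 0.958 FPKM in Day DKO (SD, n = 3 each). It was the 1 member called (limma, log2 difference -0.35, SE 0.0641, adjusted p = 0.0436, a mean lower by 23.1%), with 0.299% of all genes tested called and 0.118% called lower. This comparison shares its Day DKO libraries with the genotype comparison by day, so both rest on the same 3 values. Of the other members, Shank1 had a log2 difference of -0.29, Homer3 of -0.28, Shank3 of -0.22, Dlg2 of -0.16 and Dlg4 of -0.16 (limma, adjusted p of 0.213 to 0.295). In all, 9 of the 10 differences were negative, with a median of -0.16 against 0.02 for all genes. Of all genes tested, 58.7% had a positive difference. Night DKO lay wholly below Day DKO for 4 members (Homer1, Shank1, Dlg2 and Dlg4), which held for 6.44% of all genes tested. The choroid plexus markers summed to 1882 to 2979 in Night DKO against 61.5 to 1772 in Day DKO. Blood markers (115.9 to 158.9 in Night DKO against 90.5 to 109.8 in Day DKO) and markers of neighbouring cortex, thalamus and striatum (20.7 to 23.8 against 15.4 to 17.8) were also separated, and their part in the Homer1 difference was not tested. When the choroid plexus level entered the fit, the Homer1 difference was -0.39 (limma, adjusted p = 0.115). With 1 library left out at a time the call was lost in 9 of 12 cases (limma, adjusted p of 0.0523 to 0.147), and kept without Night WT replicate 3, Day DKO replicate 2 or Day WT replicate 3.

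In WT mice, 0 members were called between night and day and 3 had an unadjusted p under 0.05, with 1.67% of all genes tested called and 22.3% at such a p, near the share of the members. Those 3 were the Shank genes, at log2 differences of -0.31 for Shank1 (limma, adjusted p = 0.131), -0.25 for Shank3 (adjusted p = 0.104) and -0.23 for Shank2 (adjusted p = 0.0822). Each lay wholly lower in Night WT than in Day WT, which held for 4.37% of all genes tested. Homer1 had a difference of 0.04 (limma, adjusted p = 0.78), with a 95% interval of -0.10 to 0.17.

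Averaged over the genotypes, all 3 Shank genes were lower at night. Shank1 averaged 7.92 ± 1.02 FPKM over the 6 night libraries against 9.97 ± 1.15 FPKM over the 6 day libraries (SD), lower by 20.6%. Shank3 averaged 13.5 ± 1.27 FPKM at night against 16.0 ± 0.559 FPKM by day, lower by 15.6%. Shank2 averaged 5.83 ± 0.440 FPKM at night against 6.68 ± 0.359 FPKM by day, lower by 12.7%. They were the 3 members called (limma, log2 difference -0.30 with SE 0.0769 and adjusted p = 0.0409 for Shank1, -0.23 with SE 0.0560 and adjusted p = 0.0325 for Shank3, and -0.17 with SE 0.0456 and adjusted p = 0.0460 for Shank2). Of all genes tested, 6.07% were called in this comparison and 0.875% were called lower. The night and day libraries overlapped for each of the 3, and for the other 7 members as well, while 0.363% of all genes tested lay wholly lower at night. Homer1 had a difference of -0.16 (limma, adjusted p = 0.0581), Dlg2 one of -0.11 (adjusted p = 0.106) and Dlg4 one of -0.08 (adjusted p = 0.28). Dlg3, Dlgap1 and Homer2 lay within 0.04 of 0. The median of the members was -0.13 and that of all genes 0.05.

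These calls lay near the threshold. Among 22 other settings, Shank3 was called in 11 (adjusted p of 0.00655 to 0.0675, limma), Shank2 in 9 (0.0229 to 0.101) and Shank1 in 8 (0.0263 to 0.118), with a negative difference in each. With 1 of the 12 libraries left out at a time, Shank3 lost its call in 9 cases (adjusted p of 0.0508 to 0.0675, limma) and kept it without Night DKO replicate 1, Day DKO replicate 3 or Day WT replicate 3. Shank1 lost it in 10 cases (0.0517 to 0.0869) and kept it without Night DKO replicate 2 or Day WT replicate 2. Shank2 lost it in 11 cases (0.0545 to 0.101) and kept it without Day DKO replicate 2. The 10 choroid plexus markers summed to 1341 to 3107 in Night WT against 1100 to 2733 in Day WT. With that level as a covariate the adjusted p was 0.118 for Shank1, 0.0613 for Shank3 and 0.0683 for Shank2 (limma). The pan-neuronal markers summed to 558.5 to 594.1 in Night DKO and 549.3 to 604.3 in Night WT, against 523.7 to 582.5 in Day DKO and 520.2 to 543.7 in Day WT. All 5 blood markers were called higher at night in the averaged comparison, with sums of 115.9 to 158.9 in Night DKO and 171.3 to 285.4 in Night WT, against 90.5 to 109.8 in Day DKO and 111.0 to 153.1 in Day WT. Of 8 oligodendrocyte markers, 2 (Mog and Cldn11) were called higher, with sums of 357.9 to 459.1 in Night DKO and 447.3 to 525.8 in Night WT, against 321.5 to 400.6 in Day DKO and 395.5 to 434.6 in Day WT. Of 8 astrocyte markers, 2 (Aldh1l1 and Gjb6) were called higher, with sums of 346.6 to 417.9 in Night DKO and 328.6 to 361.0 in Night WT, against 356.6 to 395.4 in Day DKO and 320.9 to 336.6 in Day WT. Of 8 endothelial markers, 2 were called higher and 1 lower, and of 8 excitatory neuron markers 1 (Neurod2) was called lower. The part of these markers in the Shank differences was not tested. The share of higher calls among all genes depended on scaling, with 659 higher and 111 lower here against 207 higher and 282 lower under median-of-ratios scaling.

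**Figure D4:**
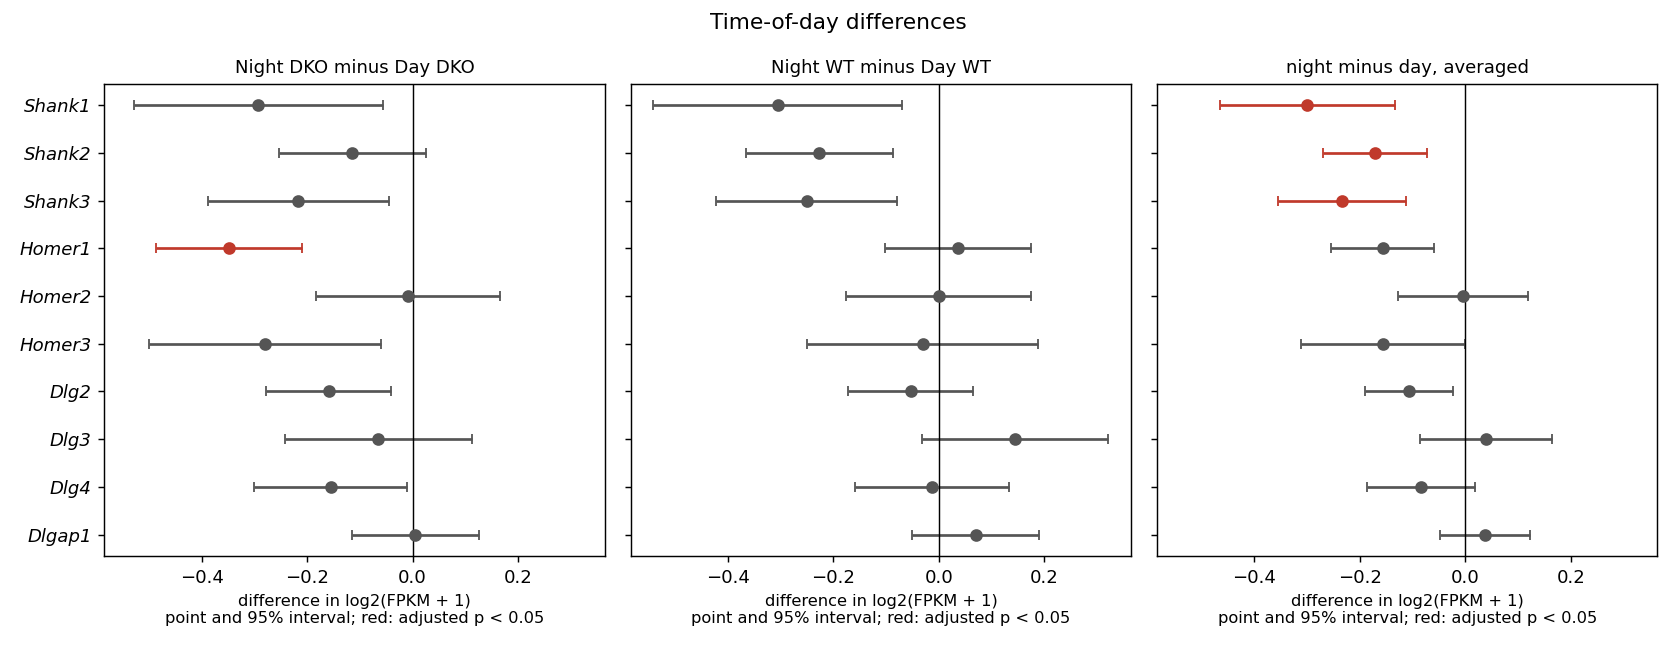
Difference in log2(FPKM + 1) between night and day (horizontal axis) for each of the 10 genes (vertical axis), in DKO, in WT and averaged over both. Points are limma estimates, bars are 95% intervals, and red marks an adjusted p under 0.05. Homer1 is red in DKO at -0.35, and Shank1, Shank2 and Shank3 are red in the averaged comparison.

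**Figure D5:**
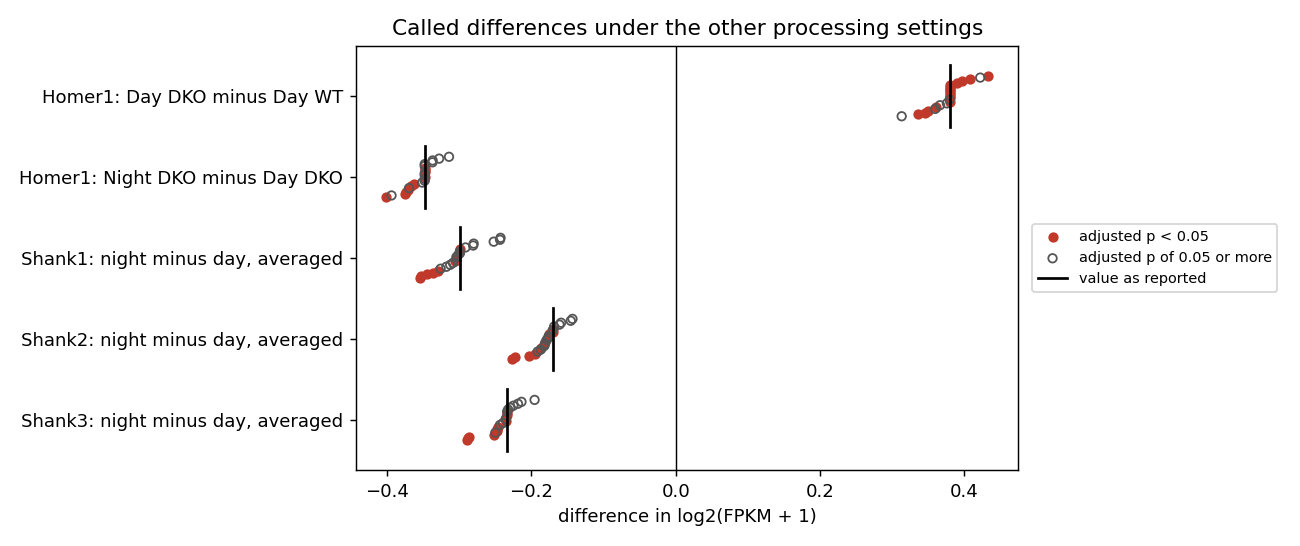
The 5 called differences (vertical axis) under each other processing setting, as a difference in log2(FPKM + 1) (horizontal axis). Filled red points had an adjusted p under 0.05, open points did not, and the black line is the value as reported. All points of a row stay on 1 side of 0, from 0.31 to 0.43 for Homer1 by day.

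Genes that work beside these scaffolds were read from 4 lists, chosen with earlier results of these data known. Of 16 scaffold relatives, such as Dlg1, the other Dlgap genes and the Magi genes, 0 were called in any of the 7 comparisons. Their median log2 difference was 0.04 at night and 0.02 by day. The relatives with the smallest p at night were Mpp3 at 0.19 (limma, adjusted p = 0.49), Magi2 at 0.12 (adjusted p = 0.569) and Dlgap4 at 0.14 (adjusted p = 0.589). By day they were Grip1, an AMPA receptor scaffold, at 0.17 (adjusted p = 0.219), Dlgap2 at 0.14 (adjusted p = 0.295) and Magi2 at 0.10 (adjusted p = 0.387).

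Of 24 binding partners within the postsynaptic density, 1 was called higher by day and 0 in the other comparisons. This was Sharpin, a Shank-binding protein, at a log2 difference of 0.31 (limma, adjusted p = 0.0373). Baiap2, which joins Shank and PSD-95 to actin regulation, had a difference of 0.24 by day (adjusted p = 0.0902), Anks1b one of 0.17 (adjusted p = 0.172) and Arhgef7, another Shank partner, one of 0.17 (adjusted p = 0.187). At night, Cttn, an actin-binding partner of Shank, had a difference of -0.17 (adjusted p = 0.56).

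Of 22 receptors and adhesion proteins that the scaffolds bind, 0 were called between genotypes at night or by day. By day 21 of the 22 differences were positive, against 62.8% of all genes tested, with a median of 0.09 against 0.04 for all genes. Cacng8 and Cacng2, auxiliary subunits of AMPA receptors, had day differences of 0.27 (limma, adjusted p = 0.114) and 0.17 (adjusted p = 0.206).

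Of 18 activity-induced genes, 17 were tested, and 5 were called higher in Day DKO, with 0.796% of all genes tested called higher. Nptx2, a secreted pentraxin that clusters AMPA receptors, had a log2 difference of 1.15 (limma, adjusted p = 0.0159). Dusp5, a phosphatase of MAP kinases, had a difference of 0.80 (adjusted p = 0.0153), Vgf, a neuropeptide precursor, one of 0.62 (adjusted p = 0.00203), Ptgs2, a cyclooxygenase, one of 0.58 (adjusted p = 0.0361) and Bdnf one of 0.39 (adjusted p = 0.0469). The other 12 were not called, and the median of the list was 0.14. Of the 17 differences, 5 were negative, at -0.33 for Ier2, -0.28 for Fos, -0.25 for Nr4a1, -0.15 for Npas4 and -0.04 for Junb. Averaged over night and day, 3 were called higher, with 1.88% of all genes tested called. They were Nptx2 at 1.00 (limma, adjusted p = 0.0051), Dusp5 at 0.51 (adjusted p = 0.0146) and Vgf at 0.46 (adjusted p = 0.000438). Arc, an immediate early gene, averaged 43.6 ± 5.38 FPKM in Day DKO and 46.6 ± 5.78 FPKM in Day WT (SD, n = 3 each). At night 0 of the 17 were called between genotypes, with Nptx2 at 0.85 (limma, adjusted p = 0.194) and Vgf at 0.29 (adjusted p = 0.194). Of the night differences, 10 were positive and 7 negative. Bdnf was among the negative ones, at -0.21 (limma, adjusted p = 0.458), opposite in sign to its day difference. Between Night DKO and Day DKO, Vgf was the 1 called, at -0.37 (limma, adjusted p = 0.0212).

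The 10 genes differed in how closely each followed their common profile over the 12 libraries. Each profile was standardized to mean 0 and SD 1 of log2(FPKM + 1), and the root mean square distance to the mean profile of the members was taken. Dlg4 (0.401), Dlg2 (0.494), Shank1 (0.590) and Homer1 (0.648) were nearest, and Homer2 (1.42) was farthest, beyond the median distance of all genes tested (1.36). The mean standardized level was highest in Day DKO, with 0.764, 0.605 and 1.06 against -0.337, -0.273 and 0.294 in Day WT. Outside the members, genes near to that profile were Dscaml1 (0.246), Plch2 (0.294), Mical2 (0.314) and Sptb (0.321). These distances describe the same libraries, with shared depth, and carry no test.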

How the data were processed

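Hippocampal RNA was measured in 12 libraries, 3 in each of 4 groups taken from the titles. Per the labels' protocols, libraries were stranded and ribosomal RNA was removed. GRCm38.p6 is the genome build in the submitters' processing notes. No aligner, quantifier or annotation is named there, and what was used is not given in the sources used here. Each library has a table of FPKM per gene deposited by the authors, a unit read from the values (across 3104 genes, the lowest value above 0 fell with transcript length, Spearman's rho -0.318). Since counts are not in the tables, read depth is unknown and the test chosen for FPKM was used. Symbols of 27 genes turned into dates were restored from gene IDs.

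Values were transformed to log2(FPKM + 1), which shrinks differences of low genes. The 12689 genes that reached 0.5 FPKM in 3 or more libraries were fitted with limma 3.58.1 (R 4.3.3), with 1 mean per group over all 12 libraries, 8 residual degrees of freedom and an intensity trend in the variance prior. Tests were 2-sided, and p-values were adjusted by Benjamini-Hochberg over all genes tested in each of 7 comparisons and called under 0.05. Every adjusted p in the text comes from limma.

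The members, the 4 gene lists and the 12 marker lists were chosen with earlier results of these data known. All members were named, with the called genes of each list and up to 3 uncalled ones of smallest p in each genotype comparison (not all are printed, and some results are not reported here). Arc was named after its values were seen. Coordinates, transcripts and promoter windows came from RefSeq and GENCODE M21 annotations of the same build. Other settings covered the pseudocount, the filter, scaling, transcript length, the samples fitted, a replicate block, library weights, the choroid plexus level and each library left out. Removal of a trend with transcript GC content was added after the data were seen.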

Additional observations from a re-analysis of the deposited data

How the results depend on the processing

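Of 1580 results for single members under other settings, 1508 kept their call or stayed uncalled, and no called value changed sign. Most of these results were uncalled throughout, and 103 of the uncalled ones had another sign. The called differences held less often. Homer1 was called in 17 of 23 settings by day and in 10 of 23 between Night DKO and Day DKO. In the averaged time comparison, Shank3 was called in 11 of 22, Shank2 in 9 and Shank1 in 8. The number of members called between Day DKO and Day WT was 1 (Homer1) as reported and 0 under quantile normalization, in a fit of the compared groups alone and with the choroid plexus covariate. Between Night DKO and Day DKO it was 1 as reported and 0 with no filter on low values, in a fit of the compared groups alone, with sample quality weights and with the choroid plexus covariate. Between Night WT and Day WT it was 0 as reported and 1 (Shank3) under quantile normalization. For DKO against WT averaged over both times it was 0 as reported and 1 (Homer1) with the replicate block, with sample quality weights and with the transcript GC trend removed, a setting chosen after seeing the data. For night against day averaged over both genotypes it was 3 as reported, 0 with no filter and with the choroid plexus covariate, 5 under median-of-ratios scaling (Dlg2 and Homer1 added) and 6 under quantile normalization (Dlg4 added too).

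Leaving out each library in turn gave 0 to 1 members in the genotype comparison by day, 0 to 1 for night against day in DKO, 0 to 1 for the averaged genotype comparison and 0 to 2 for the averaged time comparison. The other comparisons gave 0 under each such omission. Of 18 pairs of samples that share a replicate number, 7 had deviations correlated above 0.1 (r from -0.116 to 0.247, median 0.0568), against 4 of 36 pairs with different numbers (median -0.0291). Pairing was taken only where every pair was above 0.1, so the numbers were not used to pair samples. With the replicate block, Homer1 was still called by day and between Night DKO and Day DKO, and 2 members (Shank2 and Shank3) were called in the averaged time comparison. The causes of these changes were not tested.

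Over all genes, the count called by day was 150 as reported, and 26 with no filter, 4 with the choroid plexus covariate and 50 in a fit of the compared groups alone. For the averaged time comparison it was 770 as reported and 389 to 894 under the settings that keep all libraries, and for Night DKO against Day DKO 38 as reported and 15 to 69. For Night WT against Day WT it was 212 as reported and 15 to 418, and for the averaged genotype comparison 238 as reported and 24 to 348. The split by day was 101 higher and 49 lower as reported and 62 higher and 65 lower under median-of-ratios scaling. Between Night DKO and Day DKO the splits were 23 higher and 15 lower as reported, and 27 higher and 42 lower under that scaling. With 1 library left out, all-gene counts were 14 to 205 by day, 2 to 38 at night (3 as reported, 2 to 15 with all libraries), 19 to 55 in DKO, 1 to 214 in WT, 80 to 255 for the averaged genotype and 243 to 853 for the averaged time comparison. With 3 libraries a group, the day differences of Dlg4 and Homer3 did not pass adjustment over all genes.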
